A study of Mus musculus with 8 samples.

Results

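Transcripts of 10 genes that set cell survival, the p53 response and Myc-driven growth were compared between HMGN1-overexpressing and wild-type proB cell colonies of the mouse. The genes were Bcl2, Mcl1, Bcl2l1, Bcl2l11, Bax, Bbc3, Trp53, Mdm2, Myc and Pim1, taken from a fixed list of Ensembl gene IDs, and all 10 were among the 27835 genes on the arrays. The list was chosen with earlier results of these data known. Colonies came from bone marrow cells of transgenic mice that overexpress HMGN1 (4 arrays) or of wild-type animals (4 arrays), grown for 1 week in a methylcellulose medium for B cells. HMGN1 binds nucleosomes, and its human gene lies in the 21q22 region of the study's title, which links a triplication of that region to B cell transformation. The promoter that drives the transgene, the strain and age of the mice and the number of mice behind each array are not given in the sources used here. P-values therefore measure the spread between these arrays, which may be technical in part.

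Early B cells survive while proteins of the BCL2 family that block death outweigh those that promote it. BCL2, MCL1 and BCL-XL (the product of Bcl2l1) hold the mitochondrial outer membrane closed, BIM (Bcl2l11) and PUMA (Bbc3) bind and neutralise them, and BAX opens the membrane. The transcription factor p53 (Trp53) induces Bax and Bbc3 after DNA damage, and it also induces Mdm2, whose product is the ubiquitin ligase that removes p53. MYC is a transcription factor that drives growth and division, and PIM1 is a kinase, induced by cytokine signalling through STAT5, that cooperates with MYC in mouse lymphoma.

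None of the 10 genes passed the threshold over all genes (limma, Benjamini-Hochberg adjusted p under 0.05), which 4 of 27835 genes did (0.0144%). The clearest differences were in the growth pair: Myc was 1.27-fold and Pim1 1.12-fold of the wild-type level in HMGN1-overexpressing colonies. In both genes every HMGN1-overexpressing array lay above every wild-type array, as was so for 4.15% of all genes. The 3 anti-apoptotic genes, the 3 pro-apoptotic genes and the p53 and Mdm2 genes overlapped between genotypes, and their mean differences lay between -0.18 (Mdm2) and 0.05 (Bcl2l11) on the log2 scale. The widest spreads among the 10 genes were between arrays of 1 genotype: Bcl2 and Mdm2 varied 1.72-fold and 1.60-fold among the 4 HMGN1-overexpressing arrays.

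Values are RMA intensities on a linear scale, an array brightness that depends on the probes, so levels are compared between arrays for a gene and not between genes. Array medians lay between 95.8 and 100.1, a range that RMA keeps narrow. In the mean over arrays, 9 of the 10 genes had a signal at or above percentile 76.6 of all genes, and Bbc3 lay at percentile 55.3. The cell composition of the colonies was not examined here, so fewer cells of a type and less RNA per cell cannot be told apart. Wild-type replicate 3 stood apart from all other arrays on the first principal component over all genes (29.9% of variance, at 36.2 against -17.5 to 2.51). HMGN1 replicate 4 stood apart from its group on the second (21.4%, at -19.8 against -6.37 to -4.54). Wild-type arrays were spread from -8.30 (replicate 3) to 20.6 (replicate 1) on that component, so it also differed between the genotypes. Those 2 arrays also held most of the extreme values of the 10 genes, and the differences without both of them are given with the results.

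Promoter windows are shown for Pim1, Trp53 and Bax, to place the E-box CACGTG, the sequence that MYC with its partner MAX is known to bind, near the starts of genes described here. The sequences are RefSeq's on GRCm38.p6, each of 300 bases, from 250 bases before a start to 50 bases after it, and the E-box is in capitals. The gene's symbol found a window for 9 of the 10 genes, all but Myc, and the 15 windows of those 9 include several starts for some genes. Pim1 had 2 annotated starts, both on the + strand, at chr17:29490535-29490834 and chr17:29492835-29493134. The Trp53 window lay at chr11:69580109-69580408 on the + strand and the Bax window at chr7:45466849-45467148 on the - strand.
Pim1, upstream start: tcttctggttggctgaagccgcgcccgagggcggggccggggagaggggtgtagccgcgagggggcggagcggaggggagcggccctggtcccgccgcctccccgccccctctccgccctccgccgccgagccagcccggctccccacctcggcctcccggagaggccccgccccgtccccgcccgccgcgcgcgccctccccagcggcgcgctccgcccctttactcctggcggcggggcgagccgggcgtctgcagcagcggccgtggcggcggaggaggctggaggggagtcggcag
Pim1, downstream start: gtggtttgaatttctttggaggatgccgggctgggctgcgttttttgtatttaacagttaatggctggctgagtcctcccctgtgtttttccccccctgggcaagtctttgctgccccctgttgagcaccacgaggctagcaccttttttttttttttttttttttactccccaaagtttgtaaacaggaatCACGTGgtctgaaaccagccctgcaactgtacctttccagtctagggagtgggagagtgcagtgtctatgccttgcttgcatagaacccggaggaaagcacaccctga
Trp53: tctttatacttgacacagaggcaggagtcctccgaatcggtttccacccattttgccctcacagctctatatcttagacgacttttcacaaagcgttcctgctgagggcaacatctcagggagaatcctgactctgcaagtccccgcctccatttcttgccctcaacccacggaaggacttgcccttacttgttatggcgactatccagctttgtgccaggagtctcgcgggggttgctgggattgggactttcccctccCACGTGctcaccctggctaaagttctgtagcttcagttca
Bax: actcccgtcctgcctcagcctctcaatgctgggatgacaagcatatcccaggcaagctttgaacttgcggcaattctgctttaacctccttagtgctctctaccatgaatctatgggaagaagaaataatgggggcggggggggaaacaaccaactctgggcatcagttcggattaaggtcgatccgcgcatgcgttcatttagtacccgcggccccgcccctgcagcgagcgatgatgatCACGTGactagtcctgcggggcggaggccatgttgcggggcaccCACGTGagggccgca

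The E-box reads the same on both strands. It occurred in 4 of the 15 windows, 1 each of Pim1, Trp53, Bax and Bbc3, and in 7.15% of all 32851 windows of that length. In the downstream Pim1 window it began 58 bases before the start, and the upstream Pim1 window held none. Trp53 had 1 E-box, which began 10 bases after the start, and Bax had 2, beginning 9 bases before and 35 bases after the start. The Bbc3 match began 64 bases before the start in the third of its 3 windows. The STAT motif TTCNNNGAA, also the same on both strands, was in 0 of the 15 windows and in 8.30% of all windows. A p53 half-site consensus matched in 4 of the 15 windows (Bax, Trp53, Mdm2 and the downstream Pim1 start) and in 8.36% of all windows. A match describes the letters in the window only, and binding was not measured here.

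Myc (ENSMUSG00000022346_at) had intensities of 1888, 1945, 1826 and 2166 in HMGN1 replicates 1 to 4, against 1422, 1623, 1507 and 1612 in wild-type replicates 1 to 4. The lowest HMGN1-overexpressing array, replicate 3, was 1.12-fold above the highest wild-type array, replicate 2. The means were 1956 ± 148 in HMGN1-overexpressing colonies and 1541 ± 95.5 in wild-type colonies (SD, n = 4 each). The log2 difference was 0.34 (SE 0.074), a 1.27-fold higher level with a 95% interval of 1.13 to 1.42. Its unadjusted limma p was 0.000999, which ranked 161 of 27835 genes, and the adjusted p was 0.172. The exact permutation p over the arrays, two-sided, was 0.0286, the smallest that 4 against 4 arrays allow.

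Pim1 (ENSMUSG00000024014_at) had the same order of genotypes with a smaller difference. Its intensities were 4017, 4260, 4098 and 4271 in HMGN1 replicates 1 to 4, against 3805, 3767, 3443 and 3905 in wild-type replicates 1 to 4. The gap between the genotypes was narrow, since HMGN1 replicate 1 was only 1.03-fold above wild-type replicate 4. The means were 4162 ± 124 in HMGN1-overexpressing colonies and 3730 ± 200 in wild-type colonies (SD, n = 4 each), with wild-type replicate 3 the lowest. The log2 difference was 0.16 (SE 0.061), a 1.12-fold higher level with a 95% interval of 1.02 to 1.23. The unadjusted limma p was 0.0262, the adjusted p was 0.401, and the exact permutation p was again 0.0286.

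These 2 of the 10 genes were those at an unadjusted limma p under 0.05, which 10.4% of all genes reached and 5.83% reached upward. They were also the 2 whose genotypes did not overlap, where 6.81% of all genes did not overlap and 4.15% did so upward. The median log2 difference of the 10 genes was -0.02 and that of all genes was -0.002.

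Without both arrays that stood apart, wild-type replicate 3 and HMGN1 replicate 4, the log2 difference of Myc was 0.28 (limma, unadjusted p = 0.00607). That of Pim1 was 0.11 (limma, unadjusted p = 0.116). Leaving out 1 array at a time, the difference of Myc stayed between 0.29 and 0.38 and its unadjusted p between 0.0012 and 0.0035. For Pim1 the difference stayed between 0.12 and 0.18 and its unadjusted p between 0.023 and 0.063. It was above 0.05 without wild-type replicate 3 (0.0564), HMGN1 replicate 2 (0.0631) or HMGN1 replicate 4 (0.0633). The lowest adjusted p over the 17 alternatives was 0.0722 for Myc and 0.175 for Pim1, in each case with a covariate taken from the first component of the residuals. That covariate comes from the residuals of the same fit, so it is unrelated to genotype and leaves both differences unchanged. It removes residual spread over all genes by construction, but the SE of Myc was 0.074 with and without it. The unadjusted limma p of Myc was 0.0013 with the covariate and 0.000999 without. Over all genes, 4360 were at an unadjusted limma p under 0.05 with the covariate and 2902 without.

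**Figure D1:**
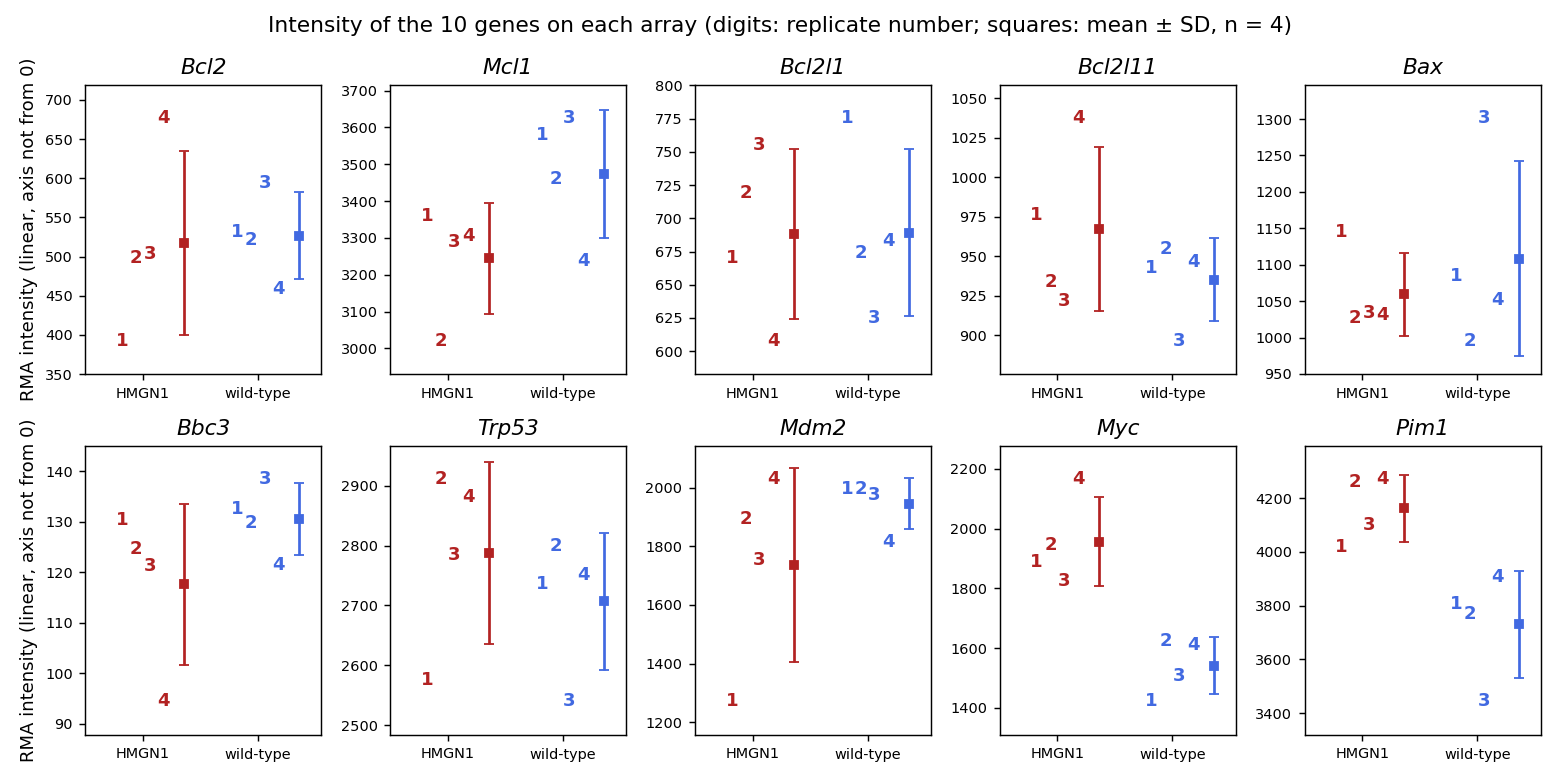
RMA intensity (linear, vertical axis not starting at 0) of the 10 genes, with HMGN1-overexpressing arrays (red) left of wild-type arrays (blue), each digit an array by its replicate number and each square a mean with its SD over 4 arrays. Only Myc and Pim1 have groups that do not overlap, as in 6.81% of all genes, and HMGN1 replicate 1 lies alone at 1271 for Mdm2.

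Trp53 (ENSMUSG00000059552_at), which encodes p53, differed little between the genotypes. It had intensities of 2575, 2911, 2785 and 2881 in HMGN1 replicates 1 to 4, against 2737, 2800, 2540 and 2751 in wild-type replicates 1 to 4. The lowest array of each genotype, HMGN1 replicate 1 and wild-type replicate 3, were close to each other, and the groups overlapped. The means were 2788 ± 152 in HMGN1-overexpressing colonies and 2707 ± 115 in wild-type colonies (SD, n = 4 each). The log2 difference of 0.04 (SE 0.063) did not pass (limma adjusted p = 0.853), and its 95% interval ran from 0.933-fold to 1.14-fold. It was 0.01 without wild-type replicate 3, and leaving out HMGN1 replicate 1 gave 0.08.

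Mdm2 (ENSMUSG00000020184_at), whose product degrades p53, was low on a single array. Its intensities were 1271, 1893, 1754 and 2029 in HMGN1 replicates 1 to 4, against 1994, 1996, 1976 and 1816 in wild-type replicates 1 to 4. HMGN1 replicate 1 had the lowest value of the 8 arrays, and HMGN1 replicate 4 the highest. The log2 difference was -0.18 (SE 0.13, limma adjusted p = 0.66), with a 95% interval of 0.719-fold to 1.08-fold. Without HMGN1 replicate 1 it was -0.04. The residual SD of Mdm2, 0.22 on the log2 scale, lay at percentile 87.5 of all genes, while that of Trp53, 0.072, lay at percentile 15.4.

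Bax and Bbc3, both induced by p53 and both promoting death, had slightly lower means in HMGN1-overexpressing colonies, and neither passed. Bax (ENSMUSG00000003873_at) had 1145, 1027, 1034 and 1031 in HMGN1 replicates 1 to 4, against 1085, 996, 1301 and 1051 in wild-type replicates 1 to 4. Wild-type replicate 3 was the highest, and 3 of the 4 HMGN1-overexpressing arrays lay between 1027 and 1034. Bax differed by -0.06 on the log2 scale (SE 0.088, limma adjusted p = 0.849) and turned to 0.02 without wild-type replicate 3.

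Bbc3 (ENSMUSG00000002083_at), the dimmest of the 10 genes on the arrays, had 130, 125, 121 and 94.4 in HMGN1 replicates 1 to 4, against 133, 129.8, 138 and 121 in wild-type replicates 1 to 4. HMGN1 replicate 4 lay below all other arrays, and the groups overlapped. Bbc3 differed by -0.16 on the log2 scale (SE 0.10, limma adjusted p = 0.619), with a 95% interval of 0.766-fold to 1.05-fold, and was -0.06 without HMGN1 replicate 4.

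Bcl2l11 (ENSMUSG00000027381_at), which encodes BIM, a death-promoting partner of BCL2, was among the steadiest of the 10 genes. It had 976, 934, 922 and 1037 in HMGN1 replicates 1 to 4, against 943, 955, 896 and 946 in wild-type replicates 1 to 4. All 8 arrays lay within 1.16-fold, with HMGN1 replicate 4 the highest. Its log2 difference was 0.05 (SE 0.060, limma adjusted p = 0.817), and its residual SD lay at percentile 9.21 of all genes. Without HMGN1 replicate 4 the difference was 0.01.

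**Figure D2:**
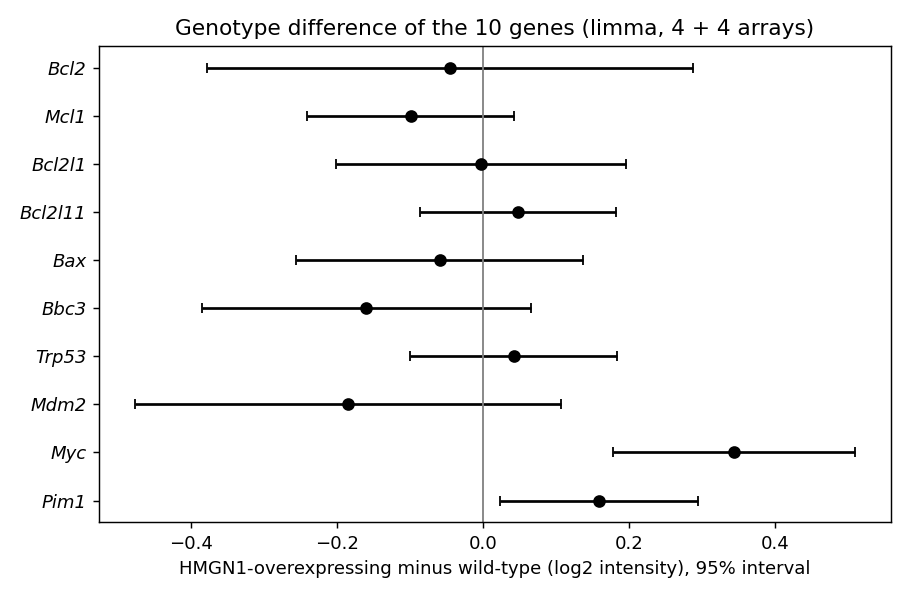
Difference in log2 intensity, HMGN1-overexpressing minus wild-type, for the 10 genes (points, limma over 4 and 4 arrays) with its 95% interval, not adjusted for the number of genes (bars). The intervals of Myc (0.18 to 0.51) and Pim1 (0.02 to 0.29) lie above 0, and the other 8 cross it.

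Among the anti-apoptotic genes, Bcl2 (ENSMUSG00000057329_at) varied most between arrays. Its intensities were 393, 498, 503 and 676 in HMGN1 replicates 1 to 4, against 531, 521, 594 and 459 in wild-type replicates 1 to 4. The lowest and the highest of the 8 arrays were both HMGN1-overexpressing, replicates 1 and 4. The log2 difference was -0.05 (SE 0.15, limma adjusted p = 0.942), with the interval from 0.769-fold to 1.22-fold. It turned to 0.08 without HMGN1 replicate 1, to 0.02 without wild-type replicate 3 and was -0.18 without HMGN1 replicate 4. The residual SD of 0.25 lay at percentile 91.9 of all genes.

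Mcl1 (ENSMUSG00000038612_at), whose product early lymphocytes need to survive, had 3361, 3021, 3290 and 3305 in HMGN1 replicates 1 to 4, against 3579, 3460, 3625 and 3236 in wild-type replicates 1 to 4. A single wild-type array, replicate 4, lay inside the range of the HMGN1-overexpressing arrays, and the other 3 lay above it. Mcl1 differed by -0.10 on the log2 scale (SE 0.063, limma adjusted p = 0.623), an interval of 0.847-fold to 1.03-fold. It kept its sign when any 1 array was left out, between -0.13 and -0.07.

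Bcl2l1 (ENSMUSG00000007659_at), which encodes BCL-XL, had the smallest difference of the 10 genes. Its intensities were 670, 719, 755 and 608 in HMGN1 replicates 1 to 4, against 775, 674, 625 and 683 in wild-type replicates 1 to 4. The groups covered nearly the same range. On the log2 scale the difference was -0.003 (SE 0.089, limma adjusted p = 0.994), and its sign turned with the scaling, to 0.01 with array medians subtracted. The interval ran from 0.870-fold to 1.15-fold. For each of the 10 genes the unadjusted interval excluded a 1.5-fold difference in both directions. The share of all genes that did so was not counted, but 27487 of 27835 genes had an interval inside 2-fold. Without both wild-type replicate 3 and HMGN1 replicate 4, the log2 differences of the 8 genes other than Myc and Pim1 ran from -0.26 (Mdm2) to 0.03 (Bax), with -0.12 for Bcl2, -0.09 for Mcl1 and -0.03 for Bbc3, and values under 0.01 in size for Bcl2l1, Bcl2l11 and Trp53. None of these passed (limma adjusted p between 0.661 for Mdm2 and 0.994 for Trp53).

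**Figure D3:**
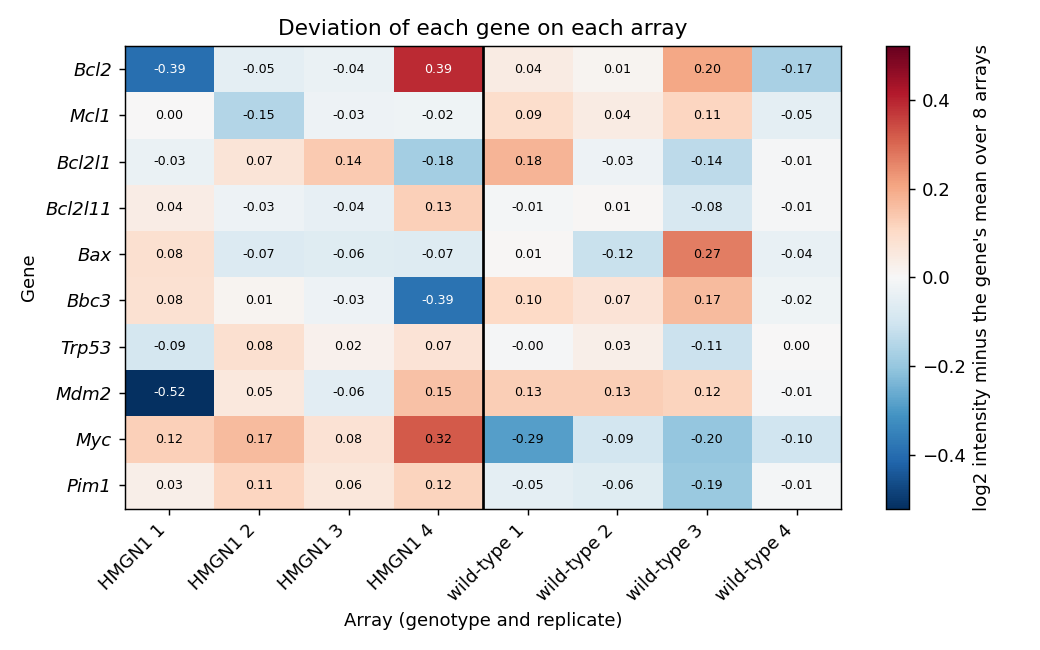
Log2 intensity of each gene (rows) on each array (columns, HMGN1-overexpressing left of the line, wild-type right) minus the gene's mean over the 8 arrays, in colour and digits. HMGN1 replicate 1 is low in Bcl2 (-0.39) and Mdm2 (-0.52), HMGN1 replicate 4 is high in Bcl2 (0.39) and low in Bbc3 (-0.39), and wild-type replicate 3 is high in Bax (0.27).

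The extremes fell on few arrays. HMGN1 replicate 4 had the highest value of the 8 arrays for 5 genes (Bcl2, Bcl2l11, Mdm2, Myc and Pim1) and the lowest for 2 (Bcl2l1 and Bbc3). Wild-type replicate 3 had the highest for 3 (Mcl1, Bax and Bbc3) and the lowest for 3 (Bcl2l11, Trp53 and Pim1). The mean size of a gene's deviation was 0.18 on HMGN1 replicate 4, 0.16 on wild-type replicate 3 and 0.14 on HMGN1 replicate 1, against 0.042 to 0.090 on the other 5 arrays. These are arrays that stand apart over all genes as well, save HMGN1 replicate 1, whose place on the first component was -0.55, and whether the same source moves the 10 genes was not tested.

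Pairs of genes tied by known regulation or by binding of their products were compared across the 8 arrays, with exact permutation p-values adjusted over the 4 pairs given. Trp53 and Mdm2 had a Pearson r of 0.48 (exact permutation p = 0.267, adjusted p = 0.628) and a Spearman rho of 0.36 (exact permutation p = 0.389, adjusted p = 0.779). Without HMGN1 replicate 1 and wild-type replicate 3, the arrays farthest from the Trp53 median, r was 0.24. With 1 array left out, the r of Trp53 and Mdm2 was lowest without HMGN1 replicate 1 (-0.08) and highest without wild-type replicate 3 (0.82). Mdm2 had an r of -0.19 with Bax (rho -0.40, exact permutation p = 0.586 and 0.327) and of -0.22 with Bbc3 (rho -0.05, exact permutation p = 0.478 and 0.935), and without HMGN1 replicates 1 and 3 these r were 0.11 and -0.20. Bcl2 and Bcl2l11 had an r of 0.20 and a rho of -0.07 (exact permutation p = 0.628 and 0.882), and r was -0.67 without HMGN1 replicates 1 and 4. The adjusted p of these last 3 r was 0.628, and that of their rho 0.779, 0.935 and 0.935. None of the 4 relations passed. Myc and Pim1, the fifth pair, separated the genotypes in both genes, so no pooled correlation is given for them. With each genotype's mean removed and arrays permuted within genotypes, an analysis added after the data were seen, r was 0.73 for Trp53 and Mdm2, -0.35 for Mdm2 and Bax, -0.57 for Mdm2 and Bbc3, 0.42 for Myc and Pim1 and 0.27 for Bcl2 and Bcl2l11. None of these 5 passed either (exact permutation p = 0.0833, 0.137, 0.325, 0.333 and 0.696, adjusted over the 5 pairs 0.343, 0.343, 0.417, 0.417 and 0.696).

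Of the 28 pairs formed by the 8 genes whose genotypes overlapped, 3 had an unadjusted exact permutation p under 0.05 and 0 passed after adjustment. They are described here after their values were seen. Trp53 was lower where Bax was high, with an r of -0.88 and a rho of -0.93 (exact permutation p = 0.00275 and 0.00223), but the p adjusted over 28 pairs were 0.0573 and 0.0625. Bcl2 and Mdm2 varied together, with an r of 0.81 and a rho of 0.83 (exact permutation p = 0.00409 and 0.0154, adjusted p = 0.0573 and 0.215). Within genotypes, after each genotype's mean was removed, the r were -0.87 and 0.86. Without the 2 arrays farthest from the median of the first gene they were -0.51 (Bax with Trp53, without HMGN1 replicate 1 and wild-type replicate 3) and 0.64 (Bcl2 with Mdm2, without HMGN1 replicates 1 and 4). With 6 arrays and a shorter range of the first gene, neither passed there (exact permutation p = 0.315 and 0.182). Leaving out 1 array at a time kept r between -0.90 and -0.84 for Bax with Trp53 and between 0.70 and 0.88 for Bcl2 with Mdm2. The adjusted exact permutation p lay below the threshold only without wild-type replicate 2 for Bax with Trp53 (0.00556). For Bcl2 with Mdm2 it did so only without HMGN1 replicate 3 (0.0333). It was highest without HMGN1 replicate 1, at 0.383 for Bax with Trp53 and 0.504 for Bcl2 with Mdm2. With quantile normalization Bax with Trp53 had an r of -0.71 (exact permutation p = 0.0489, adjusted p = 0.456). The remaining pair, Bcl2l11 with Bbc3, had an r of -0.80 and a rho of -0.36 (exact permutation p = 0.0398 and 0.389, adjusted p = 0.371 and 0.834), and without wild-type replicate 3 and HMGN1 replicate 4 its r was 0.62.

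**Figure D4:**
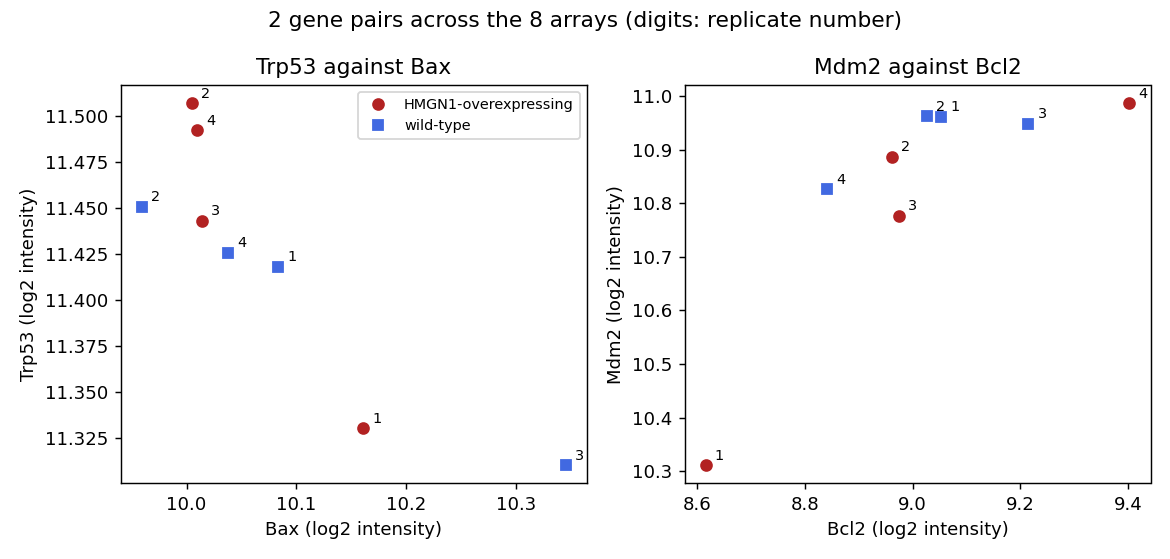
Log2 intensity of Trp53 against Bax (left) and of Mdm2 against Bcl2 (right) on the 8 arrays, HMGN1-overexpressing as circles and wild-type as squares, with replicate numbers. HMGN1 replicate 1 and wild-type replicate 3 lie at high Bax and low Trp53 (r = -0.88), and HMGN1 replicate 1 lies at the low end of both Bcl2 and Mdm2 (r = 0.81).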

How the data were processed

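RNA of 8 samples was measured on Affymetrix arrays. The authors deposited 1 intensity per gene and array, made by RMA per the submitters' processing notes, a method that corrects background, quantile-normalizes the arrays and summarises probes, and the values themselves show a linear scale. Which version of the Ensembl gene definition was used is not stated there. Groups and replicate numbers came from the sample titles, with 0 columns of other samples. No pair of arrays shared over 0.108% of its values. Log2 intensity of all 27835 genes was fitted with limma 3.58.1 (lmFit and eBayes, R 4.3.3), HMGN1-overexpressing minus wild-type, with no filter and no block, and p-values were adjusted over all genes by Benjamini-Hochberg with a threshold of 0.05. The fit was also run on simulated data with independent noise for each gene. These lack the array-wide patterns of the real data, and the outcome is not given here. Single genes also had a two-sided exact permutation test.

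The members and lists were chosen with earlier results of these data known, and all 10 members are named. Their symbols are those given with the list of IDs. The RefSeq gene table used (GRCm38.p6, 49997 genes) held all 10 symbols but 0 Ensembl IDs. The pairing was therefore not checked against it. The other BCL2 family, caspase, p53 and Myc pathway genes, the lineage markers of the labelled cell type and the overexpressed gene itself, listed by symbol, were not analysed here. Alternatives were 2 scalings, an offset of 16, a signal filter, 2 variance models, the replicate block, the first residual component and each array left out.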

Additional observations from a re-analysis of the deposited data

Results flagged for a closer look

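In 24 groups of 4 values (the 10 genes and 2 principal components, in each genotype), 4 had an array whose gap to the nearest other one took up more of the group's range than Dixon's 95% critical value allows. Of the 20 groups of genes 2 were flagged, where chance gives about 1 in 20 groups. That rate does not hold for the components, which are chosen for their large spread. HMGN1 replicate 1 lay above the other HMGN1-overexpressing arrays in Bax, at 10.16 on the log2 scale. Wild-type replicate 4 lay below the other wild-type arrays in Mdm2, at 10.83. Wild-type replicate 3 lay far from its group on the first principal component over all genes, at 36.2, and HMGN1 replicate 4 on the second, at -19.8.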

How the results depend on the processing

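Of the 17 alternatives, the one that left out both wild-type replicate 3 and HMGN1 replicate 4 was added after the data were seen. None of the 10 genes passed the threshold under any of the 17. Myc was at an unadjusted limma p under 0.05 in 17 and Pim1 in 12 of them. The count of 4 genes past the threshold over all genes was 0 with the replicate block (2374 at an unadjusted p under 0.05, limma), 241 with the first residual component and 0 without both arrays (2509 at an unadjusted p under 0.05). It was 9 without wild-type replicate 1, 1 without wild-type replicate 4, 40 without HMGN1 replicate 1 and 0 without any other single array, with 2266 to 3038 at an unadjusted p under 0.05. The first residual component removes residual spread by construction, and the cause of the other changes was not tested. Small differences turned sign: Bcl2l1 was 0.0147 with array medians subtracted, and without both arrays Bcl2l1 was 0.00999, Bcl2l11 -0.0066, Bax 0.033 and Trp53 -0.0046. Leaving out 1 array gave -0.183 to 0.0788 for Bcl2, -0.0489 to 0.0555 for Bcl2l1, -0.108 to 0.0204 for Bax, 0.014 to 0.070 for Bcl2l11 and 0.012 to 0.080 for Trp53. Correlations ranged likewise from -0.0799 to 0.82 (Trp53 and Mdm2), -0.79 to 0.20 (Mdm2 and Bax), -0.33 to 0.11 (Mdm2 and Bbc3), -0.82 to 0.52 (Bcl2 and Bcl2l11), -0.90 to -0.84 (Bax and Trp53) and 0.70 to 0.88 (Bcl2 and Mdm2). Same-numbered arrays did not deviate together (r = -0.078, -0.088, -0.24 and -0.095), so numbers were not taken to pair samples. With the replicate block Myc had an unadjusted limma p of 0.00187 and Pim1 of 0.0509. Signal over background was not given, so detection of dim genes such as Bbc3 is unknown.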
